A study of Rattus norvegicus with 2 samples.

Results

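Oligodendrocyte progenitors and the cells that differentiate from them were followed in the rat hypothalamus through 9 genes, Pdgfra, Cspg4, Olig1, Olig2, Sox10, Gpr17, Enpp6, Bmp4 and Bcas1. They were taken by gene name from the mRNAs of the deposited tables, and all 9 were found among the 22777 genes listed. Total RNA of the hypothalamus was sequenced from female Sprague Dawley rats at 2 stages, prepuberty (postnatal day 25) and puberty (postnatal day 35, with vaginal opening as the mark of puberty). The methods give 3 rats per stage, but the tables hold 1 column per stage and do not say how the rats were combined, so the differences between stages could not be set against a spread between rats and no p-value is given. A whole hypothalamus holds every cell type of the tissue, and fewer cells of a type cannot be told apart from less RNA per cell.

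Oligodendrocytes form the myelin of the central nervous system and arise from progenitors that persist, and keep dividing, after birth. Progenitors carry the receptor for PDGF-A and the proteoglycan NG2. On leaving the cycle they pass through a short committed stage, marked by the receptor GPR17 and then by ENPP6 and BCAS1, before they make the proteins of compact myelin. The transcription factors OLIG1, OLIG2 and SOX10 are present along the whole lineage. In the hypothalamus, progenitors of the median eminence go on forming new oligodendrocytes in the adult.

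As deposited, 8 of the 9 genes were lower in the pubertal library and 1, Bcas1, was higher, while scaling the libraries to equal Actb left 2 lower, Gpr17 and Bmp4. As a ratio, the difference was largest for Gpr17, from 38.2 to 21.1 FPKM (fragments scaled to the length of the transcript and to the depth of the library), and next largest for Bmp4, from 10.6 to 6.98 FPKM. The pubertal over prepubertal FPKM of the other 7 genes lay between 0.812 (Enpp6) and 1.16 (Bcas1). The 9 genes summed to 332 FPKM before puberty and 306 FPKM at puberty. The median log2 ratio, log2 of (pubertal FPKM + 1) over (prepubertal FPKM + 1), was -0.19 for the 9 genes, beside -0.01 for the 13804 genes with a mean FPKM of at least 1. A pubertal value below the prepubertal one was listed for 51.0% of these 13804 genes and one above it for 49.0%.

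With 1 added to each FPKM, 1 of the 9 genes was lower by 1.5-fold or more, Gpr17, and 0 were higher by that much. Among the 13804 genes, 2.41% were lower to that extent and 1.77% higher. At least 2-fold was reached by 0 of the 9 genes and by 0.956% of all genes in either direction. With 9 genes, a count of 1 or 0 says little beside such shares. Of the 13804 genes, 0.819% had a log2 ratio below that of Gpr17 and 3.13% below that of Bmp4, while 84.7% were below Bcas1.

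These FPKM could be turned back into fragments. The lowest FPKM of genes with a single transcript lay on steps that whole fragments give once transcript length is allowed for, and the steps placed the scale of the libraries at 20768100 fragments before puberty and 16210200 at puberty. On that scale 17 of the 18 values of the 9 genes came out whole within 0.05 of a fragment. They ranged from 141 fragments, for Bmp4 at puberty, to 4658, for Bcas1 before puberty. The intervals of levels and of pubertal over prepubertal ratios are exact 95% intervals from these numbers, those of changes between pairs of genes are approximate, and all cover counting error only, not the spread between rats.

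**Figure D1:**
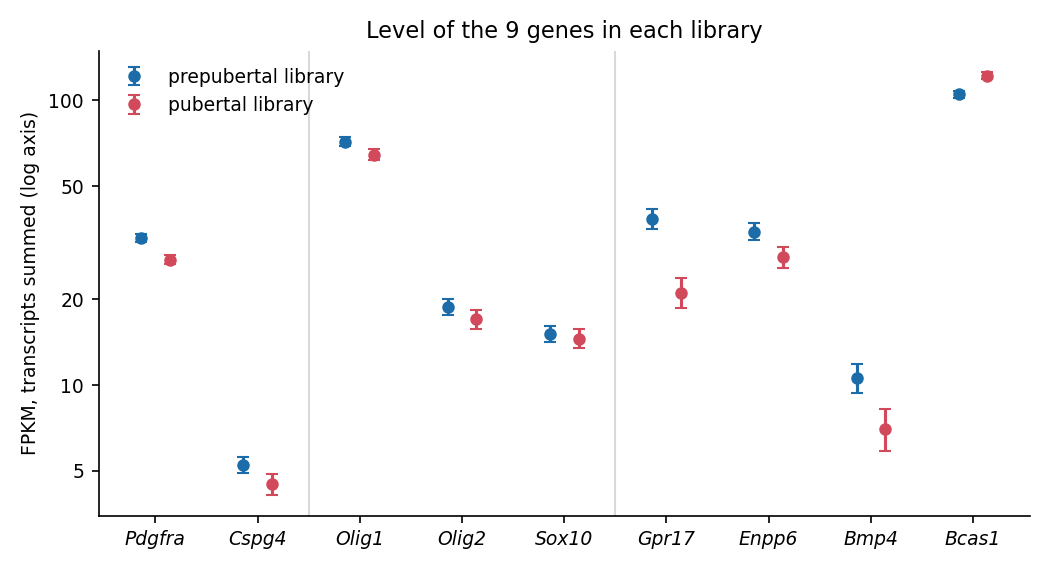
The 9 genes are on the x axis, ordered as progenitor surface genes, transcription factors and genes of committed and newly formed cells, and the y axis gives FPKM on a log scale, with 1 point per library and 95% counting intervals. As deposited, Bcas1 has the pubertal point above the prepubertal one, 8 genes have it below (2 if scaled to equal Actb), and Gpr17, from 38.2 to 21.1 FPKM, shows the widest gap on the log axis.

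Pdgfra (ENSRNOG00000002244) encodes the receptor through which PDGF-A keeps progenitors dividing. Its level was 32.8 FPKM (4267 fragments) in the prepubertal and 27.6 FPKM (2798 fragments) in the pubertal library. The pubertal value was 0.839 times the prepubertal one, with a counting interval of 0.800 to 0.881 and a log2 ratio of -0.24. Cspg4 (ENSRNOG00000017208), which encodes NG2, had the lowest level of the 9 genes in either library, 5.24 and 4.49 FPKM. Its ratio of 0.856 (0.768 to 0.953) was close to that of Pdgfra. Pdgfra stood at 6.27 times the FPKM of Cspg4 before puberty and 6.14 times at puberty, and the interval of that difference, -0.20 to 0.14 on the log2 scale, includes 0. Scaled to equal Actb, both had log2 ratios above 0, at 0.15.

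Of the genes with a lower pubertal value as deposited, the transcription factors differed least, and scaled to equal Actb they were above 0, from 0.25 for Olig1 and Olig2 to 0.33 for Sox10. Olig1 (ENSRNOG00000028648) and Olig2 (ENSRNOG00000028658) encode basic helix-loop-helix proteins, OLIG2 being needed for the lineage to form and OLIG1 for its maturation. Olig1 went from 71.6 to 64.4 FPKM, a ratio of 0.900 (0.849 to 0.954). Olig2 went from 18.81 to 16.998 FPKM, a ratio of 0.904 (0.817 to 0.999). Olig1 was 3.804 times Olig2 in the prepubertal and 3.79 times in the pubertal library, so this pair kept its proportion within an interval of -0.17 to 0.16 on the log2 scale. Sox10 (ENSRNOG00000011305), whose protein switches on myelin genes, went from 15.1 to 14.6 FPKM. Its ratio of 0.963 had an interval of 0.869 to 1.07, and a difference between the libraries was not detectable at this depth. Of the 13804 genes, 42.7% had a log2 ratio below that of Sox10, near the middle of the distribution.

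The genes of committed and newly formed cells spread more widely, in both directions. Gpr17 (ENSRNOG00000025745) encodes a G protein-coupled receptor that is switched on when a progenitor commits to differentiation and is lost again in mature cells. It was represented by 606 fragments before puberty and 263 at puberty, and its ratio was 0.552 (0.476 to 0.639), a log2 ratio of -0.83. Bmp4 (ENSRNOG00000009694) encodes a secreted factor of the TGF-beta family that holds back oligodendrocyte formation. It rested on 272 and 141 fragments, the fewest of the 9 genes, and its ratio was 0.661 (0.536 to 0.813), a log2 ratio of -0.53. With a pseudocount of 0.1 in place of 1, Bmp4 also passed 1.5-fold, and the count of lower genes past it became 2. The share of the 13804 genes that were lower to that extent went from 2.41% to 4.14%.

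Enpp6 (ENSRNOG00000009660) encodes a choline-specific phosphodiesterase of oligodendrocytes at the onset of myelination. It was listed with 2 transcripts and summed to 34.6 and 28.1 FPKM, a ratio of 0.812 (0.729 to 0.903). The 1478 nt transcript held 97.0% of the level before puberty and 97.4% at puberty, and the 1729 nt transcript was listed at 1.04 and 0.739 FPKM. The separate transcripts did not come out as whole fragments, but their sums did, at 883 and 562. Bcas1 (ENSRNOG00000012906), which marks early myelinating cells and stays on in myelin, had the highest level of the 9 genes. Its level was 105 FPKM in the prepubertal library against 122 FPKM in the pubertal one, a ratio of 1.16 (1.12 to 1.21) on 4658 and 4245 fragments. The 8 genes other than Enpp6 were listed with a single transcript each.

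**Figure D2:**
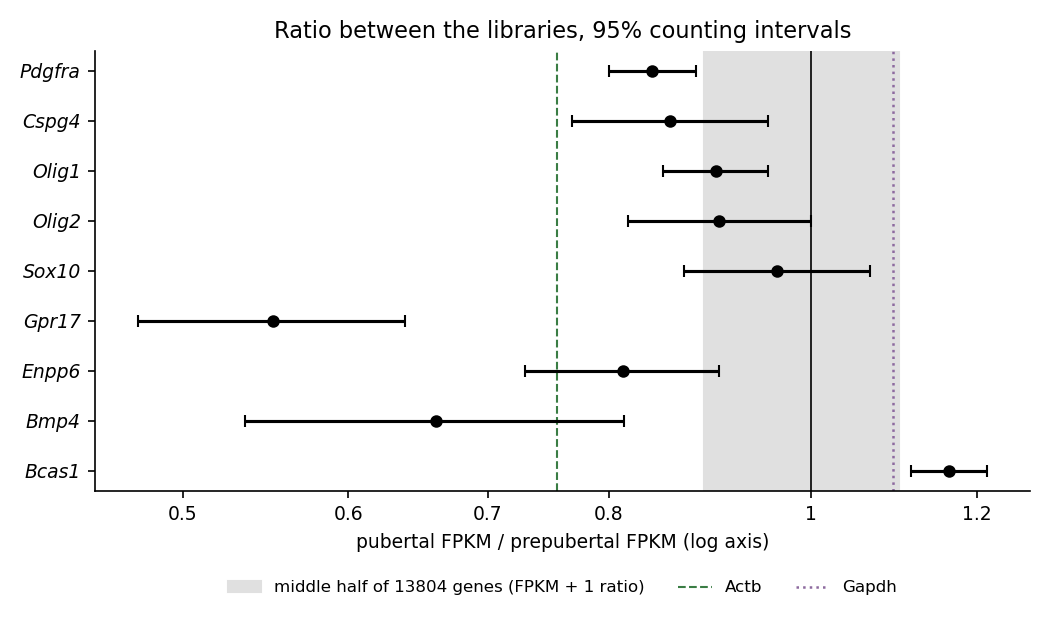
The x axis gives the pubertal over the prepubertal FPKM on a log scale, points are the 9 genes with 95% counting intervals, the grey band holds the middle of the log2 ratios of 13804 genes (quartiles -0.17 and 0.14), and lines mark 1, Actb and Gapdh. The intervals of 7 genes lie below 1, that of Sox10 spans 1 and that of Bcas1 lies above it; set against the Actb line instead, the points of Gpr17 and Bmp4 are below it and the intervals of Bmp4 and Enpp6 span it.

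The counting interval lay below 1 for 7 of the 9 genes and above 1 for 1, beside 25.5% and 18.9% of the 10467 genes at least as long as Gpr17 for which it could be computed. These shares were not matched for the number of fragments, on which the width of an interval depends. Among the 7, the interval of Olig2 reached 0.999, close to 1.

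The direction of the smaller differences depends on the scale of the libraries. Actb, the reference of the quantitative PCR in the study, was itself listed at 763 and 576 FPKM, a ratio of 0.755, whereas Gapdh was listed at 1839 and 2012 FPKM, a ratio of 1.09. Scaled to equal Actb, 2 of the 9 genes, Gpr17 and Bmp4, stayed lower, with log2 ratios of -0.44 and -0.17, and Bcas1 passed 1.5-fold upwards at 0.62, as 16.3% of all genes did on that scale. That scaling moved the median of all genes to 0.36, and 8 of the 9 genes lay below that median, as they did below the median of -0.01 without it. The median of the 9 genes minus that of all genes was -0.18 as deposited, -0.21 after scaling to Actb and -0.12 when genes were centred within classes of transcript length. Longer mRNAs were lower at puberty, from a median log2 ratio of 0.07 in the shortest of 10 classes of transcript length to -0.13 in the longest. Gpr17 (1020 nt) and Bmp4 (1497 nt) are the shorter of the 9 genes together with Enpp6 (1478 nt), and Pdgfra (6514 nt) and Cspg4 (8077 nt) the longest. Centred within its length class, Gpr17 had a log2 ratio of -0.91, Bmp4 of -0.58, Pdgfra of -0.12 and Cspg4 of -0.06, and Sox10 of 0.00, and 7 of the 9 genes lay below the median of all genes.

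Ratios between genes of the same library do not depend on that scale. Gpr17 was 2.53 times Sox10 before puberty and 1.45 times at puberty, a log2 change of -0.80 (-1.06 to -0.55). It stood above Pdgfra before puberty, where Pdgfra was 0.859 times Gpr17, and below it at puberty, where Pdgfra was 1.31 times Gpr17. Against Enpp6 the change was -0.56 (-0.82 to -0.30), and against Bmp4 it was -0.26 (-0.62 to 0.10), so that Gpr17 and Bmp4 could not be separated at this depth. The widest change was that of Gpr17 over Bcas1, from 0.364 to 0.173, a log2 change of -1.08 (-1.29 to -0.86). The share of Bcas1 in the summed FPKM of the 9 genes was 31.6% before puberty and 39.9% at puberty, and that of Gpr17 11.5% and 6.89%. The pairs share genes, and the intervals leave out the spread between rats.

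**Figure D3:**
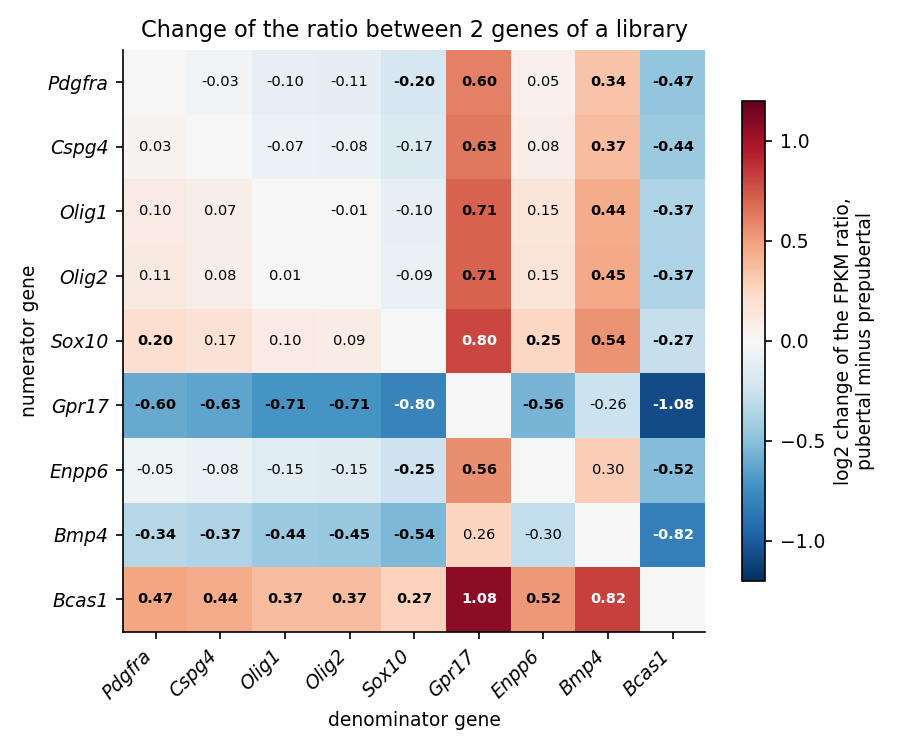
Rows are the numerator and columns the denominator of the FPKM ratio of 2 genes in 1 library, and each cell gives the log2 change of that ratio, pubertal minus prepubertal, in bold where its 95% counting interval leaves out 0. The row of Gpr17 is negative throughout, from -0.26 against Bmp4 to -1.08 against Bcas1, while the cell of Olig1 over Olig2 is at -0.01.

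The order of the levels differed between the libraries in its middle. Bcas1 and Olig1 were the highest in each library, and Olig2, Sox10, Bmp4 and Cspg4 followed in the same order at the low end. Before puberty Gpr17 (38.2 FPKM), Enpp6 (34.6) and Pdgfra (32.8) came next after Olig1, and neighbours among these overlapped in their counting intervals. At puberty the order was Enpp6 (28.1 FPKM), Pdgfra (27.6) and Gpr17 (21.1). Enpp6 and Pdgfra still overlapped, and the interval of Gpr17, 18.6 to 23.8 FPKM, lay below that of Pdgfra, 26.5 to 28.6 FPKM. Among the 13804 genes, Bcas1 had a higher mean level than 92.5% and Cspg4 than 22.9%.

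Promoter sequences were matched by symbol for 6 of the 9 genes in RefSeq (build GRCr8), and 3 are shown because they stand for the roles among the 9 genes, the progenitor receptor, a transcription factor and an enzyme of newly formed cells. Each runs 5′ to 3′ along the gene, ends at or before the start of the gene's outermost annotated transcript, and has the E-box CANNTG, the motif of basic helix-loop-helix proteins, in capitals.
Pdgfra, chr14:33408605-33408766, minus strand: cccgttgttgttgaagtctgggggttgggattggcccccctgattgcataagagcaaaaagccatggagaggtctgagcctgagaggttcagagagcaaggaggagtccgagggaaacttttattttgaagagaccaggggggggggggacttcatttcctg
Olig2, chr11:43961335-43961584, plus strand: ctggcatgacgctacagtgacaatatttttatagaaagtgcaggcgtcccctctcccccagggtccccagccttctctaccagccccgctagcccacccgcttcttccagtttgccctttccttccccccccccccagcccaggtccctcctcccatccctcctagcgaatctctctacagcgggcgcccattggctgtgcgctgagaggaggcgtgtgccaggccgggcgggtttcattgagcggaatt
Enpp6, chr16:52026790-52026978, minus strand: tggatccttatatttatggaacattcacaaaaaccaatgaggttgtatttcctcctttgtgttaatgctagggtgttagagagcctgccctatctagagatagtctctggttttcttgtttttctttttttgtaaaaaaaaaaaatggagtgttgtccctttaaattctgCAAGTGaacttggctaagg
The motif, which reads alike on both strands, stands once in the Enpp6 stretch and is not in the letters of the other stretches shown. In the full windows of 300 bases around the start it was found in 3 of the 6 members matched (Pdgfra, Bmp4 and Enpp6) and in 72.1% of all 33469 promoters. No binding was measured in this series. Of the 4052 deposited lncRNA sequences, 0 shared 30 bases with any of the 6 windows on either strand.

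Genes of the neighbouring stages of the lineage were described from lists fixed for the purpose. Of 14 other progenitor genes, 13 were found and 12 had a mean FPKM of at least 1. In that list 11 were lower and 1 higher, 0 passed 1.5-fold, and the median log2 ratio was -0.23, or 0.11 with libraries scaled to equal Actb. Ptprz1, a receptor phosphatase that binds growth factors and matrix, went from 53.3 to 43.0 FPKM, and Mmp15, a membrane-bound metalloproteinase, from 14.1 to 10.2 FPKM. Their ratios, 0.807 (0.780 to 0.836) and 0.726 (0.655 to 0.803), were below those of Pdgfra and Cspg4 by value, and the difference was not tested.

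The 12 other genes of committed and newly formed oligodendrocytes had the lowest median of the lineage, -0.38, with 11 lower, 1 higher and 3 past 1.5-fold downwards, and a median of 0.00 when scaled to equal Actb. The 3 were Rras2, a small GTPase, from 34.2 to 20.03 FPKM, Tcf7l2, a factor of Wnt signalling, from 19.9 to 12.2 FPKM, and Sema4d, a semaphorin, from 111 to 71.5 FPKM. Sirt2, a deacetylase abundant in myelinating cells, had the highest mean of the list and went from 132 to 98.2 FPKM. Tcf7l2 is also a marker of thalamic neurons, and the 7 thalamus markers, Tcf7l2 among them, were all lower at puberty, with a median of -0.53 (-0.22 scaled to equal Actb) and a sum of 206 before and 159 FPKM at puberty. Gbx2, a thalamic homeobox gene, went from 4.29 to 2.24 FPKM, and Prkcd and Rora, the most abundant of the list, from 108 to 85.3 and from 38.8 to 34.3 FPKM. Of 12 hypothalamic peptide genes, 11 were higher, led by Oxt (411 and 686 FPKM) and Pmch (1675 and 2723 FPKM). The part of a different dissection in the values of the 9 genes was not tested.

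Genes of mature oligodendrocytes were more often higher than lower, whereas 49.0% of the 13804 genes were higher. Of 20 genes, 13 were higher and 7 lower, with a median of 0.09 (0.46 scaled to equal Actb), and the 2 past 1.5-fold were higher. These were Hapln2, a link protein of the node of Ranvier, from 19.4 to 36.0 FPKM, and Tf, which encodes the iron carrier transferrin, from 368 to 584 FPKM. Mbp, which encodes a protein of compact myelin, was listed at 4633 and 5335 FPKM. Among the 7 lower were Opalin, from 60.3 to 46.1 FPKM, Mag, from 192 to 153 FPKM, and Cnp, from 623 to 534 FPKM. Their ratios, 0.763, 0.797 and 0.857, stood beside 0.839 for Pdgfra. Set beside the summed FPKM of the mature list, the 9 genes came to 2.34% before puberty and 1.98% at puberty, the other progenitor genes to 0.980% and 0.737%, and the other committed genes to 3.09% and 2.02%. Of the 438 FPKM of the other committed genes before puberty, Sirt2 made up 132 and Sema4d 111. The shares of the other progenitor and other committed lists were not recomputed without their highest genes.

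**Figure D4:**
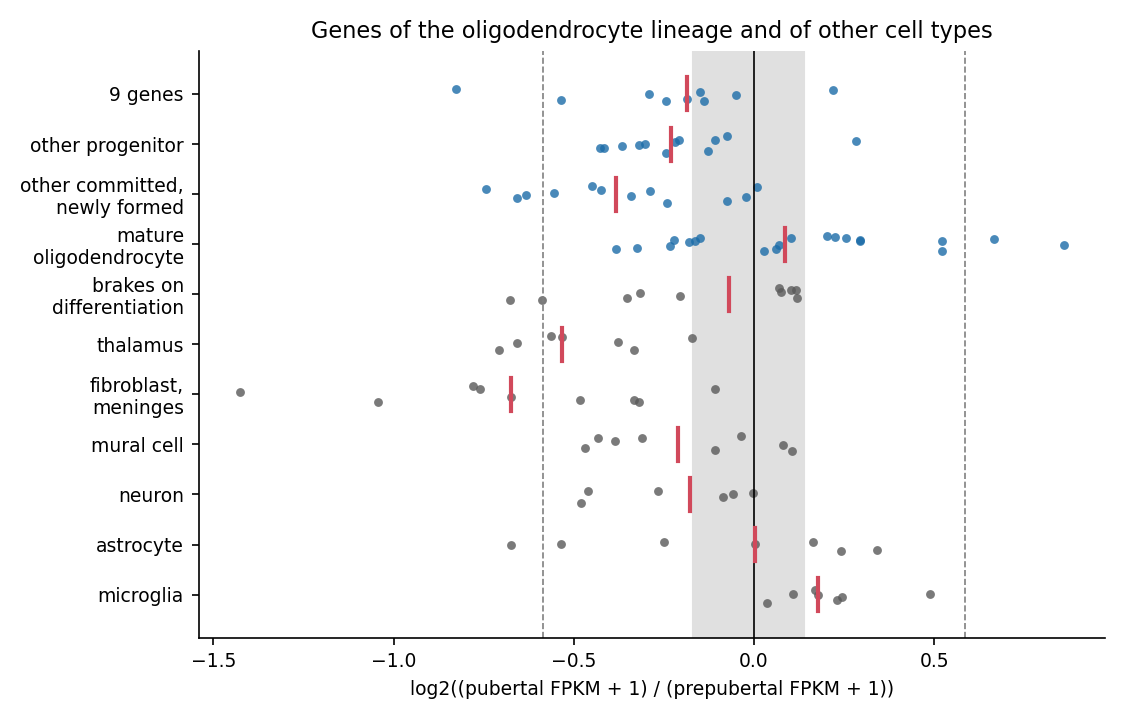
Each point is a gene with a mean FPKM of at least 1, the x axis gives log2 of (pubertal FPKM + 1) over (prepubertal FPKM + 1), red bars are list medians, the grey band holds the middle of all 13804 genes and dashed lines mark 1.5-fold. Medians of the lineage lists run from -0.38 for other committed genes, through -0.19 for the 9 genes, to 0.09 for mature genes. Lists of other cells lie further out, at -0.68 for fibroblast and meninges, -0.53 for thalamus and 0.18 for microglia markers. Scaling to equal Actb shifts the 9 genes to 0.15 and the mature list to 0.46.

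Relatives of the 9 genes went in several directions. Sox8, a SOXE factor like Sox10, was listed at 10.9 and 8.92 FPKM (ratio 0.820, 0.725 to 0.927), and Sox9, found mostly in astrocytes, at 1.596 and 1.502 FPKM (0.942, 0.572 to 1.53). Olig3 was near absence, at 0.131 and 0.555 FPKM, which correspond to 3 and 10 fragments. Enpp2, the source of lysophosphatidic acid in oligodendrocytes and choroid plexus, went from 117 to 132 FPKM, and Enpp4 from 10.1 to 11.8 FPKM. As deposited, Enpp2 and Enpp4 had ratios above 1 and Enpp6 a ratio below it, and scaled to equal Actb all of them were above it. Cspg5, a neuronal and glial proteoglycan, was far more abundant than Cspg4, at 134 and 119 FPKM (0.893, 0.855 to 0.933).

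The ligands of PDGFRA were listed at low levels apart from Pdgfa. Pdgfa, which encodes the main mitogen of progenitors and is made by neurons and astrocytes, went from 17.04 to 15.08 FPKM. Pdgfc was listed at 2.80 and 2.50 FPKM on 50 and 35 fragments. Pdgfb and Pdgfd, whose products act mainly on the sister receptor PDGFRB, were listed at 2.79 and 1.74 FPKM and at 4.46 and 4.93 FPKM. Pdgfrb itself, a gene of mural cells, went from 4.953 to 3.796 FPKM (0.766, 0.664 to 0.883). Of the 6 genes of the system, Pdgfra included, 5 were lower and 1 higher, 0 passed 1.5-fold, and the median of -0.21 became 0.16 when scaled to equal Actb.

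In the BMP pathway, 21 genes were found and 18 had a mean FPKM of at least 1. Of these 12 were lower and 6 higher, 0 passed 1.5-fold, and the median was -0.07 (0.25 scaled to equal Actb). Bmpr2, a receptor of the ligand, went from 35.9 to 30.03 FPKM, and Id3, a target gene of BMP signalling, from 52.0 to 64.5 FPKM. Id1, a target of the same signalling that was named after its values were seen, went the other way, from 25.2 to 18.4 FPKM (0.731, 0.612 to 0.871). Of 10 genes known to hold back oligodendrocyte differentiation, 5 were lower and 5 higher, with a median of -0.07 (0.26 scaled to equal Actb, 0.07 over genes with a mean FPKM of at least 5) and 2 past 1.5-fold downwards. These were Lingo1, from 17.6 to 10.6 FPKM, and Jag1, a Notch ligand, from 5.013 to 2.999 FPKM. Id4 and Gpr37, the most abundant of the list, were listed at 59.7 and 62.6 FPKM and at 49.9 and 54.2 FPKM.

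Some of the 9 genes are not confined to the oligodendrocyte lineage, since fibroblasts of the meninges carry Pdgfra and mural cells carry Cspg4. All 9 fibroblast and meninges markers were lower at puberty, with a median of -0.68 (-0.33 scaled to equal Actb), 5 past 1.5-fold and a sum of 106 FPKM before and 68.0 FPKM at puberty. Col1a1 went from 9.57 to 2.93 FPKM, Slc6a13 from 8.72 to 3.71, Col1a2 from 15.8 to 8.76 and Col3a1 from 14.6 to 8.19. Igf2, the most abundant, went from 27.1 to 21.3 FPKM. Of 9 mural cell markers, 8 had a mean FPKM of at least 1, of which 6 were lower and 2 higher, with a median of -0.21 (0.13 scaled to equal Actb) and a sum over all 9 of 121 and 118 FPKM. Rgs5 and Vtn, the most abundant, were listed at 70.9 and 76.3 FPKM and at 19.45 and 17.96 FPKM. None of these markers was at 0, and their part in the values of Pdgfra and Cspg4 was not tested.

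Genes of the cell cycle mark dividing cells of any type, progenitors included. Of 10 proliferation genes, 7 had a mean FPKM of at least 1, of which 5 were lower and 2 higher, with a median of -0.18 (0.11 scaled to equal Actb). Top2a, a topoisomerase of dividing cells, passed 1.5-fold downwards, from 1.996 to 0.951 FPKM on 196 and 73 fragments. Pcna and Mcm2, the most abundant, were listed at 51.2 and 59.1 FPKM and at 3.37 and 3.30 FPKM.

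Markers of other cell types were measured beside these. The 6 neuron markers were all lower, with a median of -0.18 (0.23 scaled to equal Actb), although Snap25 (654 and 628 FPKM) and Tubb3 (554 and 522 FPKM) differed little. The 7 astrocyte markers were divided, 4 higher and 3 lower with a median of 0.00 (0.41 scaled to equal Actb), and Gja1 passed 1.5-fold downwards from 106 to 66.3 FPKM, while Aldoc went from 1095 to 1293 FPKM and Slc1a2 from 374 to 258 FPKM. The 7 microglia markers were all higher, with a median of 0.18 (0.56 scaled to equal Actb), among them C1qa (80.4 and 95.4 FPKM) and Aif1 (49.2 and 69.5 FPKM). Of 6 endothelium markers, 4 were lower and 2 higher, with a median of -0.13 (0.25 scaled to equal Actb), Cldn5 being listed at 70.9 and 65.5 FPKM and Slco1a4 at 29.01 and 43.52 FPKM. Of 9 pituitary and choroid plexus markers, 8 had a mean FPKM of at least 1, with a median of 0.20 (0.53 scaled to equal Actb), and Gh1 (0.872 and 4.09 FPKM) and Prl (listed at 0 and at 3.40 FPKM) passed 1.5-fold upwards, while Ttr was listed at 29.04 and 23.04 FPKM and Cga at 24.63 and 29.97 FPKM.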

How the data were processed

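Hypothalamic RNA of rats at 2 stages was analysed, with 1 deposited column per stage. The authors depleted ribosomal RNA, made strand-specific libraries, used TopHat for alignment, Scripture and Cufflinks for assembly, and Cuffdiff for FPKM. The deposited values are FPKM, already scaled by the authors for depth and transcript length. The submitters' processing notes name Cuffdiff 2.1.1, Cufflinks 2.1.1 and the build Rnor_5.0, while the methods name an annotation of a later build. The deposited table of the authors' comparison gave gene names, lengths in nt and the FPKM of other transcripts; its fold changes, p-values and q-values were not used.

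Transcripts were summed per gene, and log2 ratios of FPKM + 1 were computed over genes with a mean FPKM of at least 1. No gene was tested, since there is 1 value per stage. Fragments were derived from transcripts longer than 1200 nt that were the single transcript of their gene. For those at 1 fragment (280 and 311 transcripts), 1/FPKM is a straight line in length, whose slope gives the scale. Of transcripts with 1 to 50 fragments, 94.5% of 2606 and 94.4% of 2892 came out whole within 0.05. Intervals are exact Poisson intervals of levels and Clopper-Pearson intervals of ratios at 95%, given where 1 transcript holds at least 95% of the level. Intervals of changes between pairs use the normal approximation on the log scale. The steps were checked on simulated data.

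The 9 genes and the lists were chosen with earlier results of these data known. Named genes were all 9, their relatives, the PDGF genes and, of other lists, the 2 of highest mean FPKM and up to 4 a direction past 1.5-fold. The values of 1 gene that this rule names are not reported here. Lhfpl3 was not found in the tables under that name, and Tf was used for Trf. FPKM of 13 mRNA transcripts, 0 of them of the 9 genes, differ between the deposited tables, and the mRNA table was used. Alternatives were a pseudocount of 0.1, other filters, the top transcript, 3 scalings, the FPKM of the comparison table and centring within 10 length classes. Scripts ran in Python (3.11.15) and used scipy (1.17.1), pandas (2.3.3), matplotlib (3.10.9) and numpy (2.4.6).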

Additional observations from a re-analysis of the deposited data

How the results depend on the processing

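The stages have 1 column each, so the spread between rats is unknown, and at this depth the difference of Sox10, on 871 and 656 fragments, was not resolved. Among the alternatives, scaling and centring are those that can turn the sign of a gene with a single transcript. Scaling to equal Actb turned 6 of the 9 genes, equal medians and centring within length classes turned Sox10 (0.00 in place of -0.05), and equal upper quartiles turned 0. Scaling to equal Actb left 2 of the 9 genes lower and moved the medians to 0.15 for the 9 genes, 0.11 for other progenitor genes, 0.00 (-0.0021) for other committed genes and 0.46 for mature genes. It also moved the share of lower genes among those past 1.5-fold from 57.5% to 4.19%, with a factor of 1.32 on the pubertal library, against 1.04 for equal medians. Genes past 1.5-fold among the 9 were 2 with a pseudocount of 0.1 and 0 at a threshold of 2-fold. Of the 13804 genes, 332 lower and 245 higher ones passed 1.5-fold, and with a pseudocount of 0.1 571 and 379. A minimum mean FPKM of 5 turned the medians of brakes on differentiation (0.07) and relatives of the 9 genes (0.00 in place of -0.11); it left Pcna alone (0.20) of the proliferation genes, and Cga (0.27) and Ttr (-0.32) of the pituitary and choroid plexus markers. Centring within length classes moved the median of the 9 genes to -0.12 and that of mature genes to 0.15. The 9 genes came to 2.78% and 2.34% of the summed level of the mature list by the transcript of highest FPKM, and to 2.55% and 1.85% without the highest gene of each list, each time lower at puberty. No paired analysis was possible because each stage has 1 column.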
